A study of Homo sapiens with 120 samples.

Results

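The unfolded protein response and the integrated stress response were followed through 10 genes of CFPAC-1, a human pancreatic ductal adenocarcinoma cell line. The genes were taken by name: HSPA5, XBP1, MANF, SDF2L1 and CRELD2 for the endoplasmic reticulum (ER) chaperone side, and ATF4, DDIT3, TRIB3, CHAC1 and ASNS for the ATF4/DDIT3 side. The deposited expression table has 30504 rows, and 9 of the 10 genes were read from it. ATF4 was not analysed here, so the second side rests on 4 of its target or partner genes. XBP1 stands on 2 rows, and the row with the higher mean was used.

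The libraries come from 2 experiments. In the first, untreated cells were isolated as bulk samples labelled with about 10000 cells (4 libraries), on microrafts (tiny plates that cells attach to and that can be released singly from an array), or in a Fluidigm C1 microfluidic chip. Microrafts held 0, 1 or 2 cells (10 libraries each), and C1 captures held 0, 1 or 2 cells (5 each). In the second, rafts were left untreated or given saline, 2 nM gemcitabine or 5 nM gemcitabine, a nucleoside analogue that blocks DNA synthesis. Each of these 4 arms has 8 rafts labelled proliferative and 8 labelled nonproliferative, with the number of cells per raft unknown. A further 7 libraries were made from water. No label gives a separate culture for any library, so p-values in the arms measure only the spread between rafts, and the groups of single or paired cells were compared without a test. The sample titles name no library pool, but the index sequences in them repeat between arms, and between the C1 set and the rafts. Each arm, and the C1 set, was therefore taken as its own pool, so arm and pool, or C1 capture and pool, cannot be told apart. Rafts and bulk of the first experiment were likewise split into 2 library sets, each with 2 bulk libraries. The title of 1 bulk library placed in the second set holds Rnd1. In a raft of unknown content, fewer cells and less RNA per cell cannot be told apart either.

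The unfolded protein response is set off when unfolded proteins build up in the ER. The sensors IRE1 and ATF6 act on the nucleus through spliced XBP1 and a cleaved ATF6 fragment, which switch on chaperones and folding helpers. The kinase PERK, together with related kinases that sense amino acid shortage, haem shortage or viral RNA, phosphorylates eIF2 alpha, which slows translation in general and favours translation of ATF4. ATF4 then raises amino acid supply genes and DDIT3, known as CHOP, which is linked to cell death when stress lasts. Pancreatic secretory cells are known for a large secretory load, and the response is widely studied in pancreatic tumours.

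Promoter sequences were searched for the elements these pathways are known for. RefSeq promoters of build GRCh38.p14 were found for all 10 symbols, and the 250 bases before each start were searched on both strands. The ER stress response element ERSE, read as CCAAT, then 9 bases of any kind, then CCACG, lay in the promoters of HSPA5, XBP1 and CRELD2. It was found in 0.0740% of 35116 promoters. The related ERSE-II, read as ATTGG, 1 base and CCACG, lay in that of SDF2L1, against 0.0513% of all promoters. The C/EBP-ATF response element, read as TGATGNAA, lay in those of ASNS and CHAC1, against 3.14% of all promoters. The windows are shown because they hold these matches, with the matched bases in capitals. Each is written 5′ to 3′ on the strand of the gene, so a match on the other strand reads as its reverse complement.
HSPA5: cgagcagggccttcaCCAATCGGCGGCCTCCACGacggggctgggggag
XBP1: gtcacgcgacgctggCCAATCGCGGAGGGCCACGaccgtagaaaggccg
CRELD2: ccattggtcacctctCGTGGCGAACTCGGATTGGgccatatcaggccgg
SDF2L1: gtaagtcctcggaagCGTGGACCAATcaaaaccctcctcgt
ASNS: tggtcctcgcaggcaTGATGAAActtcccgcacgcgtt
CHAC1: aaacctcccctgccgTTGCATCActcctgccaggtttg
The HSPA5 window is at chr9:125241376-125241424 on the minus strand, and its match begins 66 bases before the gene's start. The XBP1 window is at chr22:28800588-28800636, minus strand, with the match 52 bases before the start. The CRELD2 window is at chr22:49918539-49918587, plus strand, with the match 80 bases before the start. The SDF2L1 window is at chr22:21642099-21642139, plus strand, with the match 188 bases before the start. The ASNS window is at chr7:97872454-97872491, minus strand, with the match 68 bases before the start. The CHAC1 window is at chr15:40953247-40953284, plus strand, with the match 209 bases before the start. All windows are upstream of the transcribed region, and no matches overlapped. The promoters of DDIT3, TRIB3, ATF4 and MANF held none of these letters, and the core of the unfolded protein response element, TGACGTGG, found in 0.612% of promoters, lay in none of the 10. A match is a description of letters only.

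All values are FPKM, fragment counts scaled by transcript length and library total, so levels can be set side by side between genes. Detection means an FPKM of at least 1. Depth per library is unknown, since the table gives no counts. In libraries with cells of the isolation experiment 4804 to 11752 genes were detected, and 7 housekeeping genes were above 0 in every one. In bulk 8570 to 10581 genes were detected, in rafts with 1 cell 4804 to 8461, and in C1 captures with 1 cell 8560 to 10474. Of 7 epithelial and ductal markers 6 were in the table, and their summed FPKM was 1037 or more in every library with cells of this experiment. The fibroblast list summed to at most 16.1 and the endothelial list to at most 9.1 in those libraries, while the blood list reached 166.

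In single cells the balance of the sides went in opposite directions on rafts and in C1 captures. The balance is the mean log2(FPKM + 1) of the 5 ER chaperone genes minus that of the 4 ATF4/DDIT3 genes in a library. It was 2.37 ± 1.62 (SD, n = 10 rafts with 1 cell), from 0.07 to 4.88, and -3.16 ± 0.67 (SD, n = 5 C1 captures with 1 cell), from -4.16 to -2.32. All 10 rafts were above 0 and all 5 captures below 0. The empty C1 captures leaned the same way as the captures with cells, at -1.36 ± 1.42 (SD, n = 5), with 4 of 5 below 0, and the part of that background in the balance was not tested. Bulk had 1.99 ± 0.51 (SD, n = 4), with all 4 above 0. With 2 cells the balance was 2.46 ± 0.58 (SD, n = 10) on rafts and -1.48 ± 0.97 (SD, n = 5) in C1 captures, with no overlap either. Both sides contributed in single cells: the ER mean was 5.66 on rafts and 2.98 in captures, and the ATF4/DDIT3 mean was 3.29 on rafts and 6.14 in captures.

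**Figure D1:**
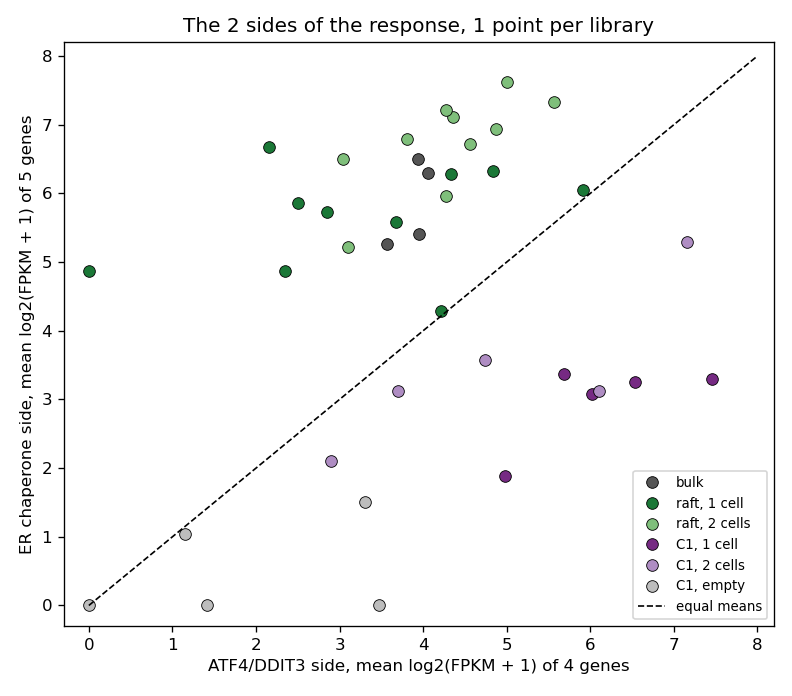
Mean log2(FPKM + 1) of the 5 ER chaperone genes (vertical axis) against that of the 4 ATF4/DDIT3 genes (horizontal axis), 1 point per library, coloured by group, with a dashed line at equal means. All 20 rafts with cells and the 4 bulk libraries lie above the line, and all 10 C1 captures with cells lie below it.

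SDF2L1, a cofactor of ER DnaJ proteins, and CRELD2, an ER protein with disulfide isomerase activity, marked the difference most. SDF2L1 in rafts with 1 cell ran from 22.1 to 120 FPKM with a median of 84.0. In the C1 captures it was 0, 0.76, 0, 0 and 5.93 FPKM. CRELD2 ran from 35.6 to 125 FPKM on rafts, with a median of 63.0, and was 0, 3.69, 0.64, 0 and 0 FPKM in the captures. Every raft was above every capture for both genes. The share of all genes whose ranges do not overlap was not counted, here or in the comparisons below. The difference of means on the log2(FPKM + 1) scale was 5.34 for SDF2L1 and 5.48 for CRELD2, a scale that understates the change of low genes. In bulk SDF2L1 was 28.0, 20.6, 106 and 92.3 FPKM and CRELD2 5.66, 9.59, 29.5 and 22.6 FPKM. Single raft cells thus overlapped bulk in SDF2L1 and lay above every bulk library in CRELD2.

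The other ER chaperone genes did not split in that way. HSPA5, the major ER chaperone BiP, was 54.6 to 597 FPKM on rafts with 1 cell (median 186) and 331, 109, 242, 67.1 and 78.5 FPKM in captures, and the groups overlapped over most of their range. XBP1, the transcription factor spliced by IRE1, was detected in 8 of 10 rafts (median 61.5 FPKM, highest 184) and in 5 of 5 captures, at 4.21, 86.8, 108, 9.07 and 24.5 FPKM. MANF, a secreted ER protein that binds HSPA5, was detected in 8 of 10 rafts (median 28.6 FPKM, highest 52.7). In captures it was 67.8, 0, 0, 0 and 5.51 FPKM. The rafts minus captures differences were 0.38 for HSPA5, 0.23 for XBP1 and 1.96 for MANF on the log2 scale.

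On the ATF4/DDIT3 side every gene had a higher mean in the captures. ASNS, the enzyme that makes asparagine, was 0 to 70.8 FPKM on rafts with 1 cell (median 22.8, detected in 7 of 10) and 96.2, 509, 131, 145 and 203 FPKM in captures. Its groups did not overlap, and the difference was -3.81. DDIT3, the stress transcription factor CHOP, was 0 to 97.1 FPKM on rafts (median 27.0) and 211, 20.7, 236, 95.2 and 349 FPKM in captures. The capture with 20.7 FPKM and 1 at 95.2 FPKM lay within the range of the rafts, and the difference was -2.73. TRIB3, a pseudokinase induced by ATF4 and DDIT3, was 0 to 151 FPKM on rafts (median 45.8) and 3.27, 201, 575, 70.3 and 317 FPKM in captures. Its difference was -2.08 and the groups overlapped. CHAC1, which breaks down glutathione, was detected in 1 raft (48.8 FPKM) and in 3 captures (79.5, 32.4 and 40.6 FPKM).

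A gene was called higher or lower at a difference of at least 2 on the log2 scale, 4-fold, if detected in at least 5 of the libraries compared. For rafts against C1 captures with 1 cell, 2 of the 9 genes were called higher (SDF2L1, CRELD2), beside 12.4% of all 10176 genes tested. A further 3 were called lower (ASNS, DDIT3, TRIB3), beside 16.4% of all genes. CHAC1, at -2.79, was detected in too few libraries to be called. With 10 rafts and 5 captures, a gene seen only in captures had to be detected in all 5, and one seen only in rafts in 5 of 10. SDF2L1 and CRELD2 were each detected in 10 of 10 rafts and 1 of 5 captures, so they passed this filter through the rafts. The shares of all genes rest on the same filter. The median of all genes tested was -0.27. The call of TRIB3 ended without the capture at 201, 575 or 317 FPKM, at -1.83, -1.45 and -1.67. It also ended without either of the 2 rafts where it was 0, at -1.57, and without the raft at 9.71 FPKM, at -1.95. MANF passed 4-fold without the capture at 67.8 (3.04) or 5.51 FPKM (2.19), without either of the 2 rafts where it was 0 (2.37) and without the raft at 1.42 FPKM (2.23). The calls of SDF2L1, CRELD2, ASNS and DDIT3 held when any 1 raft or capture was left out. The empty C1 captures held RNA of the ATF4/DDIT3 side as well. TRIB3 was 15273 FPKM in 1 of the 5, ASNS 23.0 and 396 FPKM in 2, and DDIT3 23.4 and 49.5 FPKM in 2, in libraries of 865 to 7953 detected genes. HSPA5 was 36.2 and 1.80 FPKM in 2 of the empty captures and XBP1 66.1 FPKM in 1, while SDF2L1, CRELD2, MANF and CHAC1 were 0 in all 5. The part of this background in the captures with cells was not tested. All 9 genes were at 0 in the 10 empty rafts and in the 7 water libraries.

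**Figure D2:**
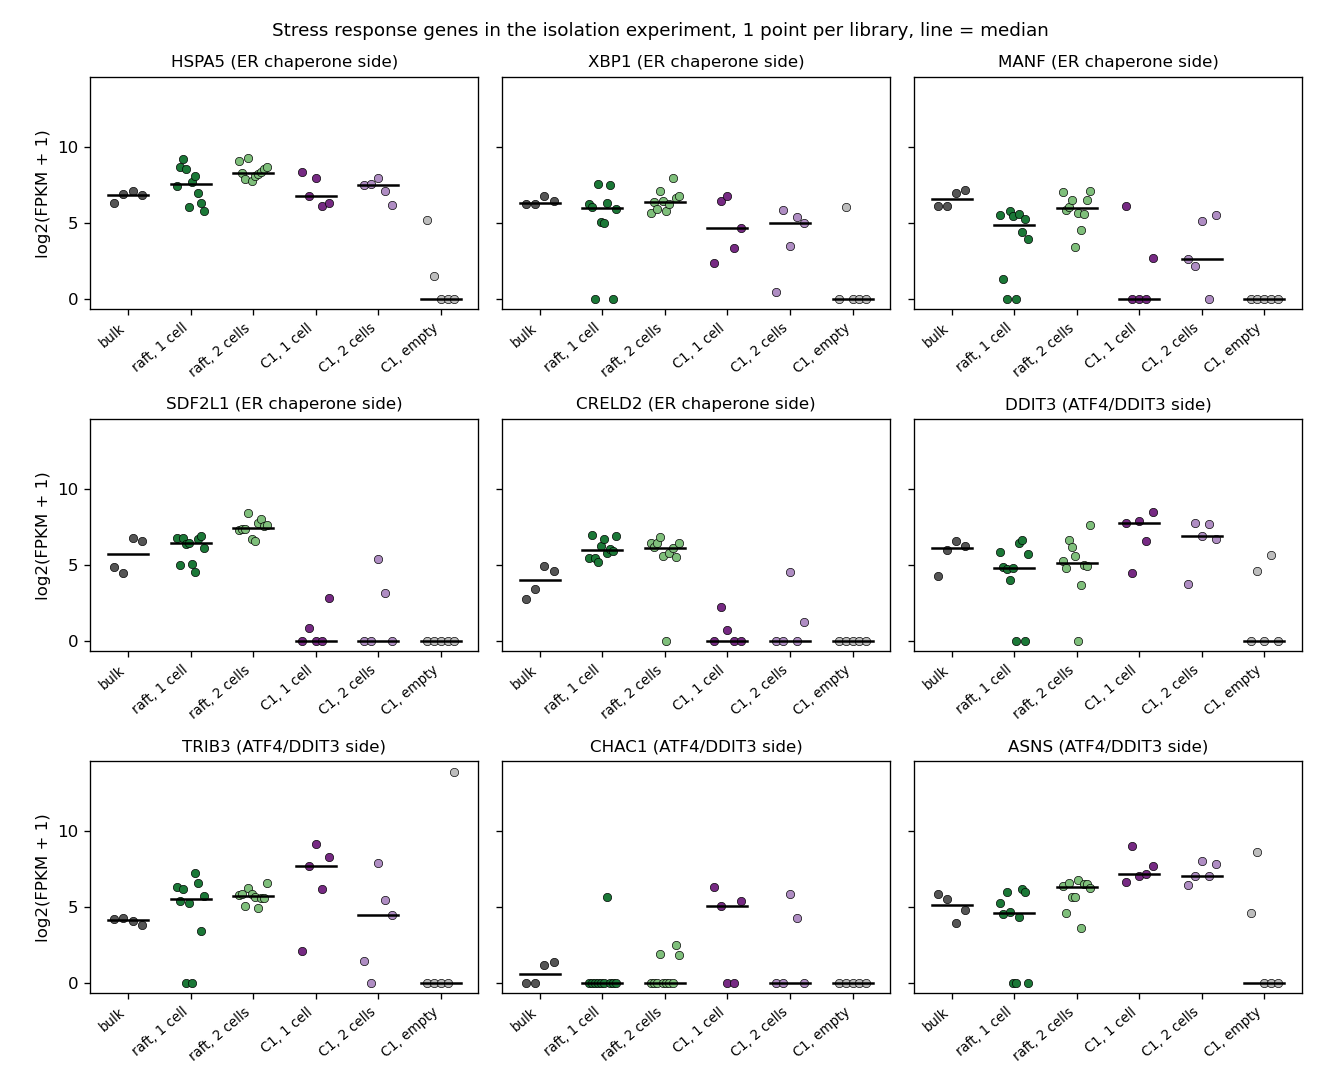
Each gene's log2(FPKM + 1) by isolation group, 1 point per library, with a black line at the group median. SDF2L1 and CRELD2 are at or near 0 in the C1 captures with 1 cell and at 22.1 FPKM or more in every raft with 1 cell, while ASNS is at 96.2 FPKM or more in every capture with 1 cell.

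The pair of groups with 2 cells gave the comparison again on other libraries. It was added after the values were seen. SDF2L1 was 92.7 to 333 FPKM on rafts (median 174) and 0, 0, 41.2, 7.76 and 0 FPKM in captures, with no overlap and a difference of 5.75. CRELD2 was 0 in 1 raft and 44.1 to 111 FPKM in the other 9, against 0, 0, 22.3, 0 and 1.40 FPKM in captures, with a difference of 4.36. MANF (2.74) and XBP1 (2.46) also passed 4-fold, MANF not without the capture where it was 0 (1.98) and XBP1 not without the capture where it was 0.37 FPKM (1.57), and 4 of 9 genes were called higher, beside 12.9% of all genes tested. None of the 9 was called lower, beside 12.3% of all genes. SDF2L1 and CRELD2, each detected in 2 of 5 captures, again passed the detection filter through the rafts. ASNS was 11.3 to 110 FPKM on rafts and 87.2 to 257 FPKM in captures, and DDIT3 was 0 to 196 and 12.02 to 214 FPKM. Their differences were -1.43 and -1.58, and DDIT3 passed 4-fold without the capture at 12.02 FPKM (-2.29). TRIB3 was 28.8 to 95.3 FPKM on rafts and 1.73, 0, 233, 42.0 and 21.0 FPKM in captures, a difference of 1.87, with the sign opposite to that in single cells. It passed 4-fold without the capture at 233 (2.87), 42.0 (2.26) or 21.0 FPKM (2.02). The ER chaperone side thus kept its direction in paired cells for all 5 genes, and the ATF4/DDIT3 side for 3 of 4.

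Against bulk, single raft cells and single C1 cells departed in different genes. The 2 comparisons share the bulk libraries. For rafts, CRELD2 was called higher by 2.16 (1 of 9 genes, beside 1.62% of all genes) and MANF lower, at -2.87 (1 of 9, beside 9.74%). Neither gene overlapped with bulk, where MANF was 69.3, 67.6, 125 and 139 FPKM. The call of CRELD2 ended without either of the first 2 bulk libraries, at 1.77 and 1.99, and within the second library set, at 1.53. For captures, CHAC1 (2.72), TRIB3 (2.59) and ASNS (2.47) were called higher (3 of 9, beside 11.2% of all genes). TRIB3 was at 1.97 without the capture with 575 FPKM, CHAC1 at 1.98 without the capture with 79.5 FPKM, and ASNS at 1.82 against the first bulk set alone. XBP1 passed 4-fold in the other direction without the capture at 86.8 (-2.13) or 108 FPKM (-2.21). MANF (-4.82), SDF2L1 (-4.92) and CRELD2 (-3.32) were called lower (3 of 9, beside 17.3%). Bulk ASNS was 56.8, 44.5, 14.5 and 26.5 FPKM, and every capture was above it. Bulk TRIB3 was even, at 17.1, 18.6, 15.6 and 13.1 FPKM, and bulk CHAC1 was 0, 0, 1.23 and 1.59 FPKM. Bulk DDIT3 was 17.9, 62.7, 94.9 and 74.8 FPKM, which put single raft cells 1.48 below and single captures 1.25 above it on the log2 scale, neither past 4-fold.

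**Figure D3:**
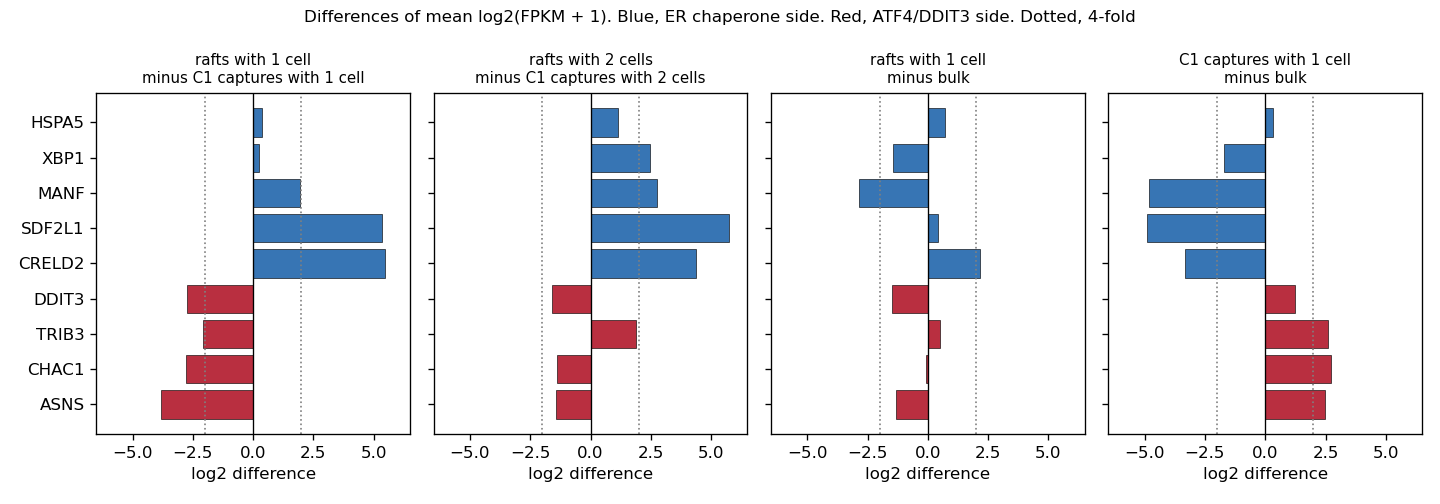
Differences of group means of log2(FPKM + 1) in 4 comparisons, with blue bars for the ER chaperone side, red bars for the ATF4/DDIT3 side and dotted lines at 4-fold. The sides point in opposite directions for rafts against C1 captures with 1 cell, where CHAC1 was detected in too few libraries to be called, as it was for rafts against bulk.

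Fewer of the genes were called between cell numbers than between modes of capture. From 1 to 2 cells on rafts, ASNS (2.17) and MANF (2.11) were called higher (2 of 9 genes, beside 2.88% of all genes), and none of the 9 was lower, beside 0.0188%. ASNS was detected in 10 of 10 rafts with 2 cells (median 78.5 FPKM) and MANF in 10 of 10 (median 61.1 FPKM). Both calls ended without the raft with 1 cell that had both genes at 0, where ASNS was at 1.76 and MANF at 1.69. That of ASNS also ended without either of the other 2 rafts at 0, at 1.76. That of MANF ended without the other raft at 0 (1.69), the raft at 1.42 FPKM (1.84), or the rafts with 2 cells at 131 (1.97) and 136 FPKM (1.97), each left out alone. CRELD2 was the 1 gene with a lower mean in rafts with 2 cells, at -0.55. Within the first library set ASNS was at 1.69. The median of all genes was 0.40, and 6416 to 9772 genes were detected in rafts with 2 cells. From 1 to 2 cells in C1 captures, TRIB3 was called lower, at -2.84 (1 of 9, beside 1.34% of all genes), and none of the 9 was called higher, beside 4.23%. Without the second of the captures with 2 cells, where TRIB3 was 0, its difference was -1.88. MANF passed 4-fold upward without the capture with 2 cells where it was 0 (2.09) or the single-cell capture at 67.8 FPKM (2.40), and CHAC1 downward without either single-cell capture where it was 0 (-2.17). The balance moved by 0.09 on rafts and by 1.68 in captures.

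The order of levels within a library changed with the mode of capture. In rafts with 1 cell the medians ran HSPA5 186, SDF2L1 84.0, CRELD2 63.0, XBP1 61.5, TRIB3 45.8, MANF 28.6, DDIT3 27.0, ASNS 22.8 and CHAC1 0 FPKM. In C1 captures with 1 cell DDIT3 (211), TRIB3 (201) and ASNS (145) stood above HSPA5 (109), and MANF, SDF2L1 and CRELD2 had medians of 0. In bulk HSPA5 (114), MANF (97.0) and XBP1 (79.8) led, and CRELD2 (16.1) and CHAC1 (0.615) stood last. Neighbours in these 3 orders overlapped in range, except CRELD2 and CHAC1 in bulk. SDF2L1 was above ASNS in 10 of 10 rafts with 1 cell, and ASNS above SDF2L1 in 10 of 10 captures with 1 or 2 cells. In 4 of 4 bulk libraries DDIT3 was above CRELD2, whereas CRELD2 was above DDIT3 in 7 of 10 rafts with 1 cell.

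Other genes of the pathways did not all follow their side. Their counts for rafts against C1 captures with 1 cell stand beside 12.4% of all genes called higher and 16.4% called lower. Of 13 other ER chaperones and folding enzymes in the table, 1 was higher and 3 lower in rafts than in C1 captures with 1 cell, with a median of 0.59 against -0.27 for all genes. DNAJB9, an HSPA5 cochaperone induced by XBP1, was at 2.15. CALR, the lectin chaperone calreticulin, was at -3.62 and FKBP14, a prolyl isomerase of the ER, at -2.61, opposite to SDF2L1 and CRELD2. In ER-associated degradation and translocation 3 of 11 were higher, among them DERL1 (2.84) and DERL2 (2.68), and 4 were lower, among them EDEM1 (-3.78) and SEL1L (-2.08), with a median of 0.14. Of the sensors and eIF2 alpha regulators 2 of 9 were lower, ATF6 (-3.12) and ATF6B (-2.54), with a median of -1.25.

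Most of the ATF4 amino acid genes had the sign of ASNS in single cells, 11 of 15 below 0. The median of all genes was below 0 as well, at -0.27. Of 15 genes 8 were lower on rafts than in captures, beside 16.4% of all genes, among them PHGDH (-3.43) and PSAT1 (-3.22) of serine synthesis, and 1 was higher, beside 12.4%, the transporter subunit SLC3A2 (2.74), with a median of -2.42. Of 9 tRNA synthetases and the tRNA exporter listed with them, EPRS (-2.38) was lower and none was higher, with a median of -1.37. Other DDIT3 and ATF4 effectors had 1 of 6 higher, the secreted glycoprotein STC2 (3.09), and none lower. In paired cells the amino acid list had 3 of 15 higher, beside 12.9% of all genes, 1 lower, beside 12.3%, and a median of 0.53 against 0.02 for all genes, led by ALDH18A1 (3.04) and SLC3A2 (2.96). Against bulk, captures with 1 cell had PYCR1 at 4.36, SARS at 3.64, PPP1R15A at 3.88, CALR at 3.18 and EDEM1 at 3.57. The lowest genes of the same lists, in that order, were ALDH18A1 (-3.29), XPOT (-2.39), EIF2B5 (-2.28), DNAJB9 (-2.86) and DERL2 (-4.09). Called higher in these lists were 4 of 15, 3 of 9, 2 of 9, 1 of 13 and 2 of 10. Called lower were 1, 1, 1, 2 and 5. Of all genes tested 11.2% were higher and 17.3% lower. PPP1R15A, which recruits the phosphatase of eIF2 alpha, was also higher than bulk in rafts with 1 cell, at 2.62.

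In many libraries of the gemcitabine experiment few of these genes were listed above 0. Of the 64 libraries, 37 had at least 1 of the 7 housekeeping genes at 0, so a 0 there says only that a gene is listed at 0. Spearman rho with bulk was at least 0.25 in 34 libraries, 22 proliferative and 12 nonproliferative, where a median of 5.5 of the 9 genes was detected. In the other 30 libraries the median was 0. The limma fit used the 52 libraries with at least 1000 genes detected, 26 of each class, and 11560 genes. It left out 1 of the 8 rafts of each class with saline, 2 nM and 5 nM, and 3 of each untreated class. Values of this fit thus rest on 7 or 5 rafts per group. The fits on 34 and 29 libraries used below had fewer rafts in most groups.

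Averaged over the 4 arms, 5 of the 9 genes rose in proliferative against nonproliferative rafts, beside 11.4% of all genes tested, and none fell, beside 0.753%. They came from both sides. TRIB3 was detected in 19 of 26 proliferative rafts (median 60.99 FPKM) and 8 of 26 nonproliferative rafts (median 0), with a difference of 3.24 (SE 0.78, limma adjusted p = 0.0049). SDF2L1 was detected in 17 of 26 (median 106 FPKM) and 7 of 26, with a difference of 3.16 (SE 0.89, limma adjusted p = 0.0149). DDIT3 was detected in 16 of 26 (median 47.9 FPKM) and 7 of 26, with a difference of 2.99 (SE 0.85, limma adjusted p = 0.0160). CRELD2 was detected in 14 of 26 and 8 of 26, at 2.05 (SE 0.73, limma adjusted p = 0.0484). CHAC1 was detected in 10 of 26 and 2 of 26, at 1.38 (SE 0.44, limma adjusted p = 0.0286). In every one of these genes the classes overlapped, since both held libraries at 0.

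HSPA5 (0.96, limma adjusted p = 0.52), XBP1 (1.32, adjusted p = 0.30), MANF (1.21, adjusted p = 0.28) and ASNS (0.12, adjusted p = 0.91) did not pass. ASNS was seen in 9 of 26 rafts of the proliferative class and in 10 of 26 of the other. All 9 differences were above 0, and so was the median of all genes, at 0.58. The classes also differed in quality. Medians of 6022 and 2799.5 genes were detected in the 26 proliferative and 26 nonproliferative libraries of the fit, and 6779 and 5650 in the 22 and 12 libraries with a rho of at least 0.25. With genes detected added to the fit as a covariate, TRIB3 was the 1 gene still called (2.63, limma adjusted p = 0.0336), beside 1.86% of all genes called higher in that fit. Within the 34 libraries none was, beside 0.714% of all genes, with TRIB3 at 2.46 (limma adjusted p = 0.28). Epithelial markers moved with the classes too: their summed FPKM had a median of 915 to 5160 in the proliferative groups and 124 to 1206 in the nonproliferative groups. The part of these in the result was not tested.

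**Figure D4:**
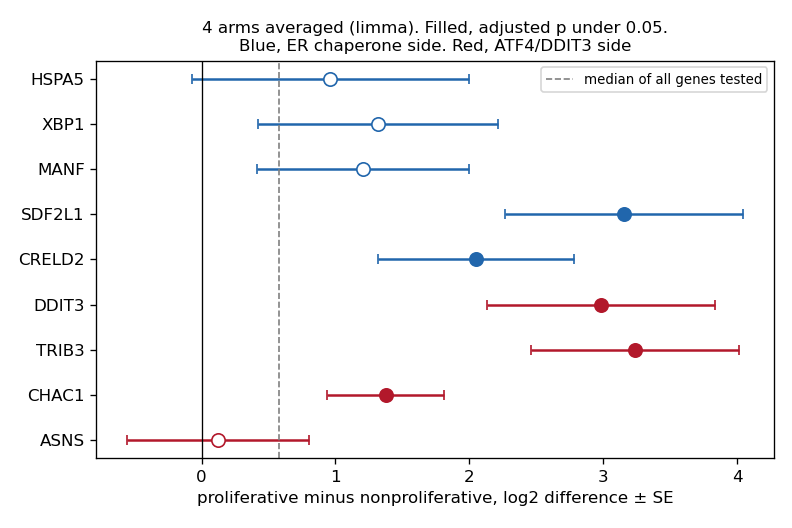
Proliferative minus nonproliferative difference in log2(FPKM + 1) averaged over 4 arms for each gene, with bars of 1 SE (limma, 52 libraries), filled where the adjusted p was under 0.05. The 5 filled genes lie between 1.38 and 3.24, and the dashed line marks the median of all genes tested, 0.58.

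Of 64 other genes of the pathways tested 8 rose with proliferation, 12.5%, beside 11.4% of all genes, so their share was near that of all genes. They were SEC61G (3.39) and SEC61B (3.55), subunits of the ER translocon (2 of 10 tested in degradation and translocation), PYCR1 (3.0) and SHMT2 (2.28) of proline and one-carbon metabolism (2 of 15 amino acid genes), and SARS (2.80) and EPRS (2.04) (2 of 9 tRNA synthetases). DDIT4 (2.55) was 1 of 7 effectors and EIF2B5 (2.01) was 1 of 10 sensors and regulators. None of the 13 other ER chaperones passed, and no gene of any list fell. Their limma adjusted p ran from 0.0032 for PYCR1 to 0.0449 for EPRS.

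Within single arms none of the 9 genes passed for proliferation. The share of all genes called by limma was 0% in untreated rafts, 0% with saline, 0.0173% with 2 nM and 0% with 5 nM gemcitabine. At an unadjusted p under 0.05 there were 2, 1, 1 and 1 of the 9 genes in these arms. Of all 11560 genes 808, 1272, 1348 and 1030 were under it. DDIT3 at 5 nM came nearest. In proliferative rafts it was 2597, 842, 1647, 432, 0, 0, 0 and 3370 FPKM, and in nonproliferative rafts it was 491 FPKM in 1 and 0 in 7. The 5 proliferative rafts that showed DDIT3 were above every proliferative raft of the other arms, where the highest were 75.6 FPKM untreated, 231 FPKM with saline and 347 FPKM with 2 nM. The raft at 3370 FPKM had a rho with bulk of 0.0687 and 2 of the 9 genes detected. The difference between classes at 5 nM was 6.18 (SE 1.62, limma adjusted p = 0.20). It passed in the 29 libraries with at least 3000 genes, at 8.15 (limma adjusted p = 0.0212), beside 0.282% of 10627 genes called higher there. That fit left out every proliferative raft at 5 nM with DDIT3 at 0, and the raft at 1647 FPKM (2506 genes detected). It kept the raft at 3370 FPKM (3624 genes detected). Of the nonproliferative rafts with DDIT3 at 0 it left out some and kept others.

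TRIB3 was next, at 2 nM. In proliferative rafts it was 7.62, 143, 148, 132, 85.4, 63.5, 1001 and 0 FPKM, detected in 7 of 8. In nonproliferative rafts it was 42.0 and 22.4 FPKM in 2 and 0 in 6. The difference was 5.29 (SE 1.48, limma adjusted p = 0.24). SDF2L1 was at 0 in all 8 nonproliferative rafts of the 5 nM arm and was 254, 126 and 75.7 FPKM in 3 of its proliferative rafts.

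Gemcitabine against saline left none of the 9 genes called in either class. The shares of all genes called were 0% for 2 nM and 0.0692% for 5 nM in proliferative rafts, and 0% and 0% in nonproliferative rafts. At an unadjusted p under 0.05 there were 0, 1, 0 and 0 of the 9 genes. Of all 11560 genes 440, 1722, 613 and 1520 were under it. In proliferative rafts DDIT3 was detected in 6 of 8 with saline (highest 231 FPKM), 4 of 8 with 2 nM and 5 of 8 with 5 nM. Its difference for 5 nM against saline was 2.20 (limma adjusted p = 0.51), with 3 of the 8 rafts at 5 nM at 0. SDF2L1 was the gene with an unadjusted p under 0.05, at -3.52 (limma adjusted p = 0.31), detected in 6 of 8 proliferative rafts with saline and in 3 of 8 with 5 nM. The median of all genes in that comparison was -0.70.

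Saline against untreated rafts left none of the 9 called, beside 0.00865% of all genes in proliferative and 0% in nonproliferative rafts. An unadjusted p under 0.05 was found for 1 and 0 of the 9, beside 1647 and 1683 of all 11560 genes. Differences were above 0 for 8 and 9 of the 9 genes, and the medians of all genes were 0.96 and 1.22. A pair of comparisons was added after the values were seen. For 5 nM against 2 nM in proliferative rafts none of the 9 was called, beside 0.0173% of all genes. An unadjusted p under 0.05 was found for 1 of 9 (DDIT3 at 3.49, limma adjusted p = 0.88), beside 643 of all 11560 genes. The difference between classes in the effect of 5 nM against saline gave none of 9, beside 0% of all genes. An unadjusted p under 0.05 was found for 0 of 9, beside 363 of all 11560 genes.

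The balance of the sides in the arms was read only as a description. Among libraries with any of the genes detected it was above 0 in 6 of 7 proliferative rafts with saline, 6 of 7 with 2 nM and 4 of 5 untreated. With 5 nM it was above 0 in 2 of 5 and below 0 in 3 of 5. DDIT3 was above CRELD2 in all 5 of those 5 nM rafts. In nonproliferative rafts the balance was above 0 in 3 of 3 untreated, 3 of 5 with saline, 3 of 4 with 2 nM and 4 of 6 with 5 nM. Some of these signs, in both classes, rest on 1 detected gene, so that they tell only which gene was seen. An example is the 5 nM nonproliferative raft where XBP1, at 1.55 FPKM, was the 1 gene detected.

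**Figure D5:**
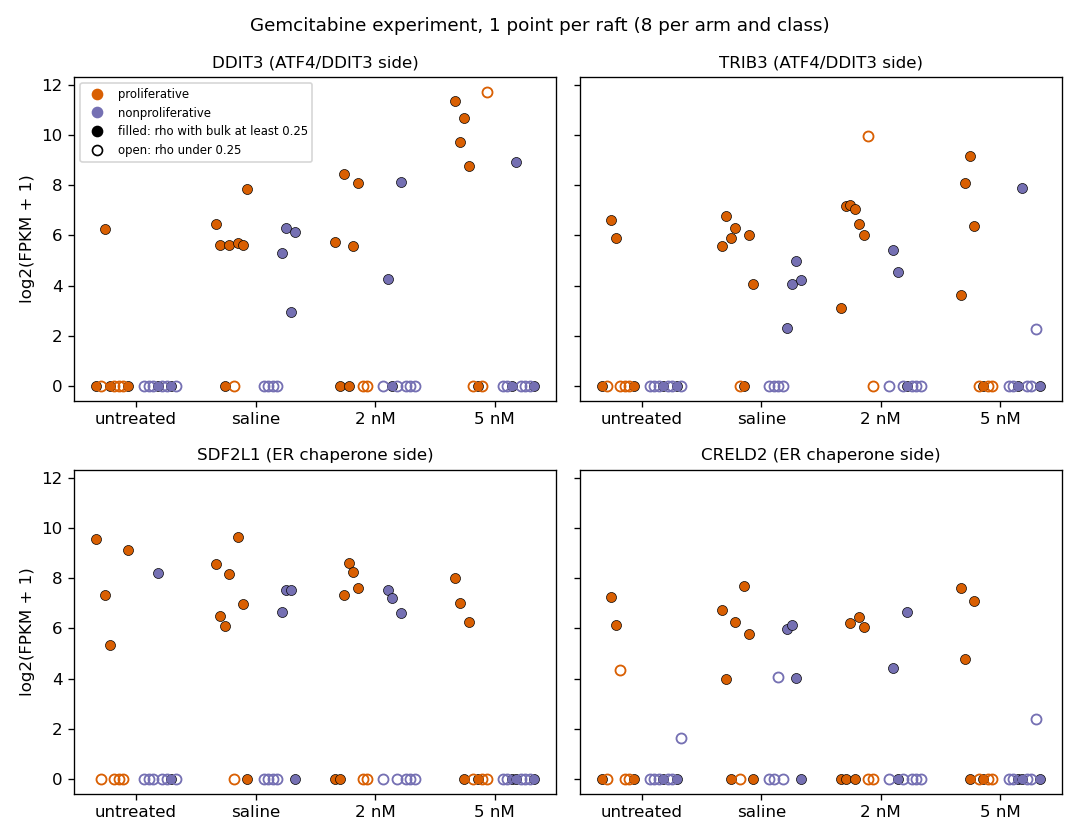
log2(FPKM + 1) of DDIT3, TRIB3, SDF2L1 and CRELD2 in each raft of the 4 arms, orange for proliferative and purple for nonproliferative, filled where Spearman rho with bulk was at least 0.25. DDIT3 reaches 432 to 3370 FPKM in 5 of 8 proliferative rafts at 5 nM, 1 of them an open point, and many points of every gene lie at 0.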

How the data were processed

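RNA of 120 libraries was made into cDNA with a SMARTer kit and Nextera XT, per the labels' protocols. RSEM and build hg19 are named in the submitters' processing notes, and the authors deposited 1 table of FPKM values. The table does not name its unit, which was taken from the values: over 65 libraries with more than 3000 genes the CV of column totals fell from 10.3% to 5.87% after multiplying by transcript length. Totals ran from 339644 to 817990, and no counts are given, so depth is unknown. Gene names were used as deposited, and hg19 coordinates were not used.

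Groups, doses and cell numbers came from the labels. Values were analysed as log2(FPKM + 1) with Python 3.11.15, pandas 2.3.3 and numpy 2.4.6. Arms were compared in 1 fit of 8 groups by limma 3.58.1 (trend, two-sided, Benjamini-Hochberg over 11560 genes detected in at least 8 of 52 libraries, threshold 0.05), checked on simulated data. Isolation groups have no named cultures, so each counted as 1 sample: means were subtracted and no p was computed. All 10 genes were to be named whatever their values. Of the other lists, the up to 4 genes with the smallest p, or the 2 with the largest differences each way, could be named. The genes and lists were chosen with earlier results of these data known. The alternatives were pseudocount, low filter, scaling, covariate, quality filters, library sets and leaving out replicates. HSP90B1, EDEM2, DERL3, ATF5 and KRT19 were not analysed here.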

Additional observations from a re-analysis of the deposited data

Results flagged for a closer look

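Each gene and the balance were looked at in groups of 4 to 10 libraries for a highest or lowest library far from the rest (Dixon's ratio on the log2 scale). Of 131 such groups 22 had one. The ratio's usual rate of about 1 in 20 is for normally spread values. It does not apply to groups with many values at 0, where a lone library above 0 always passes. In many the library was the only one above 0. These were XBP1 in an empty C1 capture (66.1 FPKM), TRIB3 in an empty C1 capture (15273 FPKM) and CHAC1 in a raft with 1 cell (48.8 FPKM). Untreated proliferative rafts had XBP1 at 44.1, MANF at 29.7, DDIT3 at 75.6 and ASNS at 454 FPKM, each in 1 raft of 8. Untreated nonproliferative rafts had MANF at 23.8 and SDF2L1 at 295 FPKM in the same raft, and CRELD2 at 2.13 and ASNS at 4.96 FPKM in another. CHAC1 was 14.2 FPKM in 1 saline nonproliferative raft. With 5 nM gemcitabine, nonproliferative rafts had CRELD2 at 4.27, DDIT3 at 491 and CHAC1 at 1.41 FPKM, each in 1 raft.

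In the others the remaining libraries were not all at 0. HSPA5 was 36.2 FPKM in an empty C1 capture, with 1.80 FPKM next. CRELD2 was 22.3 FPKM in a C1 capture with 2 cells, with 1.40 FPKM next. TRIB3 was 238 FPKM in the 5 nM nonproliferative raft that also had DDIT3, with 3.80 FPKM next. The balance was 5.85 in an untreated nonproliferative raft, with 1.53 next. At the low end, 1 raft with 2 cells had CRELD2 at 0 (next 44.1 FPKM) and DDIT3 at 0 (next 11.5 FPKM), and a C1 capture with 2 cells had DDIT3 at 12.02 FPKM (next 101 FPKM).

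The row of XBP1 that was not used reached 29.2 FPKM in a C1 capture with 2 cells, against at most 2.35 FPKM in empty or water libraries. It was detected in 5 libraries and had a mean of 0.388 FPKM, against 59.6 FPKM for the row used.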

How the results depend on the processing

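The count of 5 genes called for proliferation over 4 arms became 2 with no low filter, 3 with quantile normalization, 1 with genes detected as a covariate and 0 in libraries with a rho of at least 0.25. The share of all genes called higher fell too, from 11.4% to 3.57%, 4.18%, 1.86% and 0.714%. At 5 nM the count rose from 0 to 1 in libraries with at least 3000 genes, where 0.282% of all genes were called higher. The direction reversed in genes that were not called: HSPA5 (-0.085 with the covariate, -1.81 by rho), MANF (-0.60 by rho) and ASNS (-0.47 with quantile normalization, -0.47 with the covariate, -0.23 by rho). The cause was not tested.

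The balance with a pseudocount of 0.1 was 7.55 for rafts against C1 captures with 1 cell, 4.92 with 2 cells and -6.63 for captures against bulk. That setting gave 1 gene higher for 2 against 1 cell in captures and 4 lower for rafts against bulk. In the first library set 1 gene was higher for 2 against 1 raft cell, and captures against bulk had 1 higher and 0 lower. The second set gave 0 higher and 2 lower for rafts against bulk, 0 lower for captures against bulk and 1 lower for rafts against captures with 2 cells. Against bulk, MANF, SDF2L1 and CRELD2 in captures lost their calls in the sets through the detection filter alone, with differences of -4.36, -3.92 and -2.48 in the first (as did CHAC1, at 3.35) and -5.29, -5.92 and -4.16 in the second. Leaving out 1 library, for rafts an alternative chosen after seeing the data, gave 0 to 2 higher for 2 against 1 raft cell, 0 to 1 higher and 0 to 2 lower for 2 against 1 cell in captures, 0 to 1 higher for rafts against bulk, 1 to 4 lower for captures against bulk and 0 to 1 lower for rafts against captures with 2 cells. SDF2L1 and CRELD2 in captures lost their calls against bulk there through the same filter, with differences of -4.56 and -2.98 or beyond. Over all alternatives for counts and balances 36 values moved and 378 did not, and no balance past 4-fold reversed. A count change as large as from 2 to 3 was taken as not moved, and so was a balance shift under 1 SD between libraries. Leaving out 1 library for rafts against C1 captures with 1 cell gave 2 to 3 genes higher and 2 to 3 lower, taken as not moved. The fit with at least 3000 genes gave no average over arms. No paired analysis was possible because replicate numbers follow accession order and name a library only. Depth is unknown, and a level at 0 in an arm is no evidence of absence.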

Other observations

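The 4 bulk libraries differed by library set in several of the genes, without a test, since each set has 2. SDF2L1 was 28.0 and 20.6 FPKM in the first set and 106 and 92.3 FPKM in the second, and CRELD2 was 5.66 and 9.59 against 29.5 and 22.6 FPKM. MANF was 69.3 and 67.6 against 125 and 139 FPKM. ASNS went the other way, at 56.8 and 44.5 against 14.5 and 26.5 FPKM. The sets did not overlap in any of these 4 genes. Neither did they in XBP1, DDIT3, TRIB3 or CHAC1, and HSPA5 alone overlapped. With 2 libraries per set such gaps arise easily, and the share of all genes without overlap was not counted. In rafts with 1 cell the ranges of the sets overlapped in SDF2L1, CRELD2, MANF and ASNS. Their medians in the first and second set were 85.9 and 69.2 FPKM for SDF2L1, 42.97 and 65.54 FPKM for CRELD2, 43.3 and 20.2 FPKM for MANF, and 24.0 and 19.4 FPKM for ASNS, so CRELD2 and ASNS went the way of bulk and SDF2L1 and MANF the other way. The balance of rafts with 1 cell was 2.36 and 2.38 in the sets.

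Among the 20 rafts with cells, deviations from the mean of the same cell number and library set were compared as a description. Depths are unknown, and no label gives a separate culture for any raft. DDIT3 and TRIB3 had Pearson's r of 0.62, the highest of the 36 pairs of genes. The 6 pairs within the ATF4/DDIT3 side had a median r of 0.32, the 10 within the ER chaperone side 0.02 and the 20 between sides 0.16. CHAC1, part of several of these pairs, stood at 0 FPKM in 16 of the 20. Its highest value was 48.8 FPKM in a raft with 1 cell, with 4.65 FPKM next. DDIT3 and TRIB3 were both 0 in another raft with 1 cell. The weight of such zeros and single rafts in the r values was not tested, so the medians do not rank the sides. Of 4708 protein-coding genes, those most like the mean of the ER chaperone side were ABCE1 (r of 0.73), KIF1B (0.71), IL18 (0.69), IGF2BP2 (0.67) and EIF3L (0.67). Those most like the mean of the ATF4/DDIT3 side were SIN3B (0.81), EDC3 (0.80), HIF1AN (0.77), EIF3H (0.75) and GMDS (0.75). Both lists were picked as the highest of 4708 values of r over 20 rafts, and what unrelated genes would reach was not tested. Several of the named genes were 0 in some raft, among them KIF1B (median 3.855 FPKM) and IGF2BP2 (median 4.855 FPKM). The number of genes detected had an r of 0.17 with the first mean and 0.11 with the second.

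An untreated proliferative raft had HSPA5 at 11305 FPKM, above every other library, with XBP1, MANF, SDF2L1 and all 4 genes of the ATF4/DDIT3 side at 0. Its rho with bulk was -0.0530, with 2478 genes detected, and its epithelial markers summed to 0 FPKM.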
